A study of Mus musculus with 10 samples.

Results

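The 36 genes described here encode proteins of the major spliceosome. They were taken by name from a fixed list, which was chosen with earlier results of these data known. They were grouped by the particle to which each protein belongs. All 36 were found by symbol among the 38803 symbols of each library, and all 36 were among the 13522 genes that passed the filter on low values. Total RNA of mouse dorsal telencephalon, taken on embryonic day 12, was sequenced as 5 control and 5 mutant libraries of a C57/Bl6 - 129 SvJ background. Controls carried 1 floxed copy of Rnu11 beside a wild-type copy (Rnu11WT/Flx::Emx1-cre+/-), and mutants carried 2 floxed copies (Rnu11Flx/Flx::Emx1-Cre+/-). Both groups carried Emx1-Cre, which recombines floxed genes in progenitors of the dorsal telencephalon and their descendants. Blood, vessel and other cells in the dissected tissue that do not come from these progenitors keep their floxed copies, and the floxed copy of the controls can recombine too.

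Rnu11 encodes U11, a small nuclear RNA of the minor spliceosome, which removes a rare class of introns. The major spliceosome removes nearly all other introns. It is built on each intron from ribonucleoprotein particles: U1 binds the 5′ splice site, U2 the branch point, and U5 joins U4 and U6 in the tri-snRNP, which delivers the RNAs of the catalytic centre. The minor spliceosome replaces the U1, U2, U4 and U6 RNAs with U11, U12, U4atac and U6atac, but uses the same U5 particle, the same Sm ring, the same SF3b complex and much of the same tri-snRNP protein. The comparison asks whether transcripts of these partly shared proteins differ when both copies of Rnu11 are floxed instead of 1.

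The targeted RNA was lower in each mutant library than in any control. Rnu11 averaged 2283 ± 353 FPKM in controls and 892 ± 458 FPKM in mutants (SD, n = 5 per group). The log2 difference of -1.50 did not pass over all tested genes (SE 0.31, limma, adjusted p = 0.118), but did once the fit held a term for the library sets described next (-1.65, adjusted p = 0.00853). An exact permutation test of the single gene, two-sided, gave p = 0.00794, which restates the separation, since no split of 5 against 5 can go below it. FPKM stands for fragments per kilobase of transcript, scaled to the library's size, so it is a level per length. The libraries fell into 2 sets that crossed the genotypes. Control 5, mutant 4 and mutant 5, called the second set here, had 487 to 688 FPKM of the U12 RNA Rnu12, and the other 7 libraries, the first set, had 5.91 to 33.8. Rnu11 in mutants stood at 473 to 712 FPKM in the first set and at 1344 and 1421 FPKM in the second. The number of fragments is not stated in the files. It was estimated roughly, from the steps between low values, at 9720000 to 20770000 per library, and no counting intervals were computed. Nothing in the labels ties each library to its own embryo, and the p-values measure only the spread between these libraries, which may be technical.

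No gene of the 36 passed an adjusted p of 0.05 between mutants and controls (limma on log2(FPKM + 1), Benjamini-Hochberg over all 13522 genes). By the same test 21 genes, or 0.155% of all those tested, passed, 0.0887% higher and 0.0666% lower in mutants. The smallest adjusted p of the 36 was 0.357, for Snrnp200 and Txnl4a, both of the U5 particle. At an unadjusted p under 0.05 there were 6 of 36, all with higher means in mutants, against 8.76% of all tested genes in either direction with 7.69% higher and 1.07% lower in mutants. The 36 log2 differences ran from -0.23 for Eftud2 to 0.66 for Snrpd3. Their median was 0.13, close to the 0.11 of all tested genes, with 21 of 36 above that median, where by construction 50.0% of all tested genes lie, and 15 below. None of the 36 separated the groups without overlap, while 1.52% of all tested genes did so with mutants higher and 0.377% with mutants lower.

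The precision of these differences was moderate. The 95% interval of the log2 difference lay between -1 and 1, a 2-fold change either way, for 34 of the 36 genes. The exceptions were Snrpd3, with an interval from 0.11 to 1.21, and Snrpd2, from -1.03 to 0.64. These intervals do not set the smallest change that would be called, since a call needed an adjusted p under 0.05 over all tested genes. A change above 2-fold could miss that threshold too, as Rnu11 did at -1.50 (limma, adjusted p = 0.118). A missing call does not show that levels were equal. The plot of differences shows where each interval lies.

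**Figure D1:**
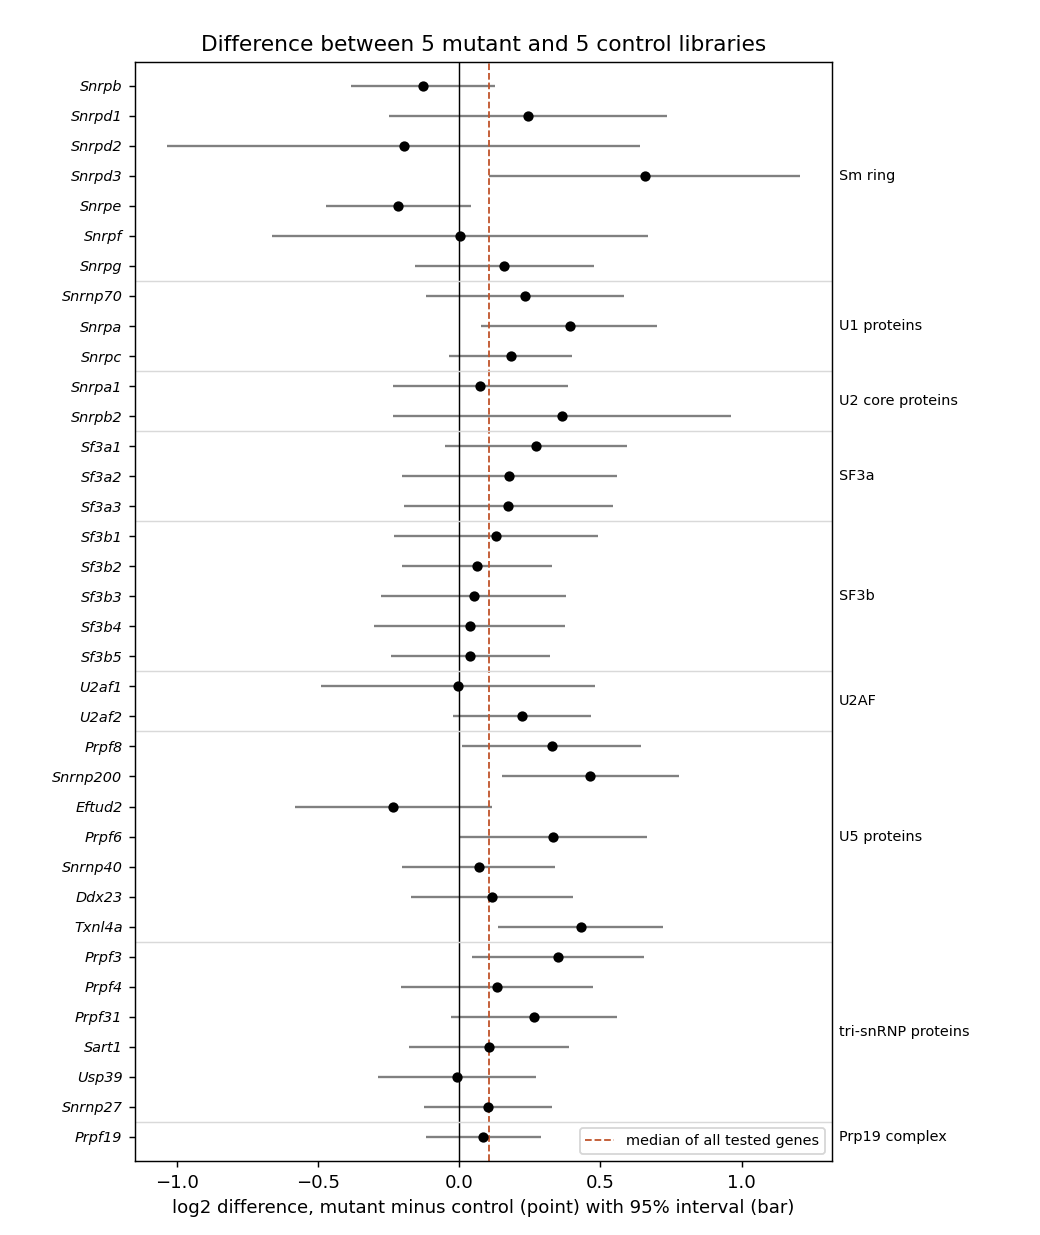
Log2 difference between mutants and controls (horizontal axis, log2(FPKM + 1) scale) for the 36 genes, in blocks by particle. Points are estimates over 5 mutant and 5 control libraries, bars are 95% intervals, and the dashed line is the median of all tested genes at 0.11. The intervals of 6 genes lie wholly above 0 and those of 0 genes wholly below it.

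Before the values are read gene by gene, the copies of these genes elsewhere in the genome need to be set out, because several of them limit what a value can mean. Many spliceosome messenger RNAs have been copied back into the genome as processed pseudogenes, which lack introns. Of the 36 genes, 15 had at least 1 annotated pseudogene matching over at least 200 bases at 90% identity or more (blastn, GENCODE M21 transcripts), and 13 had such a copy among the symbols of the files. The Sm protein gene Snrpg (chromosome 6, 86371304 to 86379328, GRCm38, plus strand) and its copy Gm8186 (chromosome 17, 26098991 to 26099221, minus strand) are the clearest case. The 231 coding bases of Snrpg, stop codon included, and the single exon of Gm8186 differ at 0 positions, so 1 sequence, shown because it stands for both loci, gives the pair.

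Snrpg and Gm8186: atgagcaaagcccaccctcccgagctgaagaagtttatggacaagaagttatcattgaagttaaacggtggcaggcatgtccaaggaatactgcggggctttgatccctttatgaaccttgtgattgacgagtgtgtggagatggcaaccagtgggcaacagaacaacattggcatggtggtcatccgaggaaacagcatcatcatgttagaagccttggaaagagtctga

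The Sm protein gene Snrpf (chromosome 10, 93583029 to 93589706, minus strand) and its copy Gm13092 (chromosome 4, 150315177 to 150315436, minus strand) differ at 4 of 260 bases compared. Both are given from base 2 of the Snrpf coding sequence to its stop codon, with the differing bases in capitals. They show how few positions within this stretch could tell a fragment of one from a fragment of the other. The Snrpf transcript has 861 bases, and its parts outside the stretch are not shown.

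Snrpf: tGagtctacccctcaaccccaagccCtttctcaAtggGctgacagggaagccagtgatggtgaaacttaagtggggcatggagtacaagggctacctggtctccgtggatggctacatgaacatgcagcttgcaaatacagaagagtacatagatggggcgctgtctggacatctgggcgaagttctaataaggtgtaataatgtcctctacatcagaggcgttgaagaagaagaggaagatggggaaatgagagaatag
Gm13092: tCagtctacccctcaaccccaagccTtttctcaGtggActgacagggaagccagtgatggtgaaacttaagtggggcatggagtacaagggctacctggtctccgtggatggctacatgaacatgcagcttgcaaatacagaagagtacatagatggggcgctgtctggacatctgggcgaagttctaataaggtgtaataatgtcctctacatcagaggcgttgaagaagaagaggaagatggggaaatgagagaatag

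The 4 differing bases all lie near the start of the coding sequence, and the rest of the compared stretch is the same in both. In 5 such pairs the copy was listed at a higher FPKM than the gene with introns. FPKM is a level per length, and each of these copies is shorter than its gene's longest coding transcript. The lengths were 231 bases for Gm8186 against 1055 for Snrpg, and 260 for Gm13092 against 861 for Snrpf. They were 720 for Gm10232 against 1046 for U2af1, 360 for Gm14277 against 858 for Snrpd1, and 480 for Gm2991 against 1013 for Snrpc. A higher FPKM of the copy need not mean more fragments. Gm13092 stood at 152, 146, 142, 209 and 346 FPKM in controls 1 to 5 and at 146, 155, 234, 380 and 335 FPKM in mutants 1 to 5, where Snrpf itself stood at 6.53 to 23.6 FPKM over the 10 libraries. Gm8186 stood at 268 to 400 FPKM against 133 to 205 for Snrpg. Gm10232, which matches the splice site factor gene U2af1 at 99.7% of 720 bases, stood at 69.9 to 136 FPKM against 10.7 to 25.5 for U2af1. Gm14277 matches Snrpd1, a further Sm gene, at 97.8% of 360 bases and stood at 52.6 to 124 FPKM against 27.9 to 57.9 for Snrpd1. Gm2991, a copy of the U1 gene Snrpc, stood at 20.3 to 39.2 FPKM against 16.2 to 21.9 for Snrpc. The sources used here do not give how the authors' program divided fragments between a gene and its copies. The levels of these 5 genes are therefore uncertain, and the share of each value that came from either locus was not tested.

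**Figure D2:**
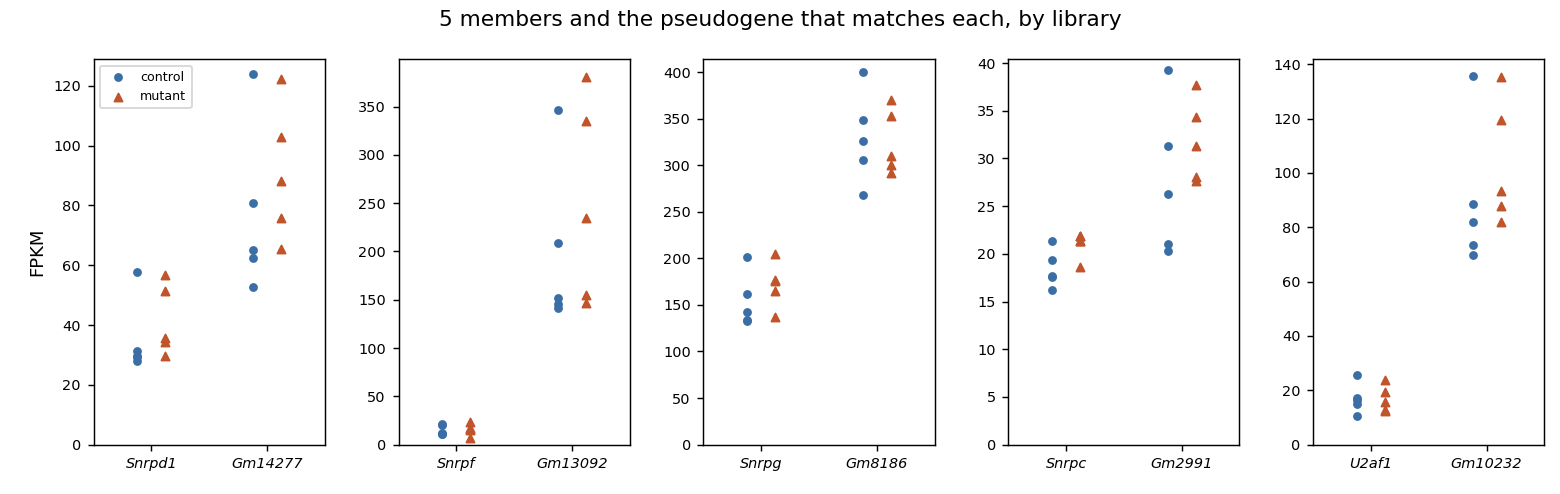
FPKM (vertical axes, linear from 0, a separate scale in each panel) of 5 genes and of the pseudogene with the highest level among those that match each, in 5 control (circles) and 5 mutant (triangles) libraries. The copy lies above its gene in each of the 10 libraries in all 5 panels.

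Adding the copies to their genes left the comparison of genotypes without a call. With the matching pseudogenes summed into each gene, an alternative chosen after seeing the data, 0 of 36 passed. Snrpf then averaged 214 ± 90.8 FPKM in controls and 266 ± 110 FPKM in mutants (SD, n = 5; log2 difference 0.29, limma, adjusted p = 0.804), and Snrpg 484 ± 74.0 and 497 ± 52.5 FPKM (0.04, adjusted p = 0.942). U2af1 went from a log2 difference of 0.00 (adjusted p = 0.997) to 0.18 (adjusted p = 0.802). A sum of FPKM over loci of different length is only a rough level of a gene family.

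The Sm ring is the set of 7 small proteins that close around the U1, U2, U4 and U5 RNAs and their minor counterparts. None of the 7 genes passed the test, and their median log2 difference was 0.00, with 4 of 7 above 0. Snrpe had the highest control mean of all 36 genes. It stood at 309, 252, 266, 323 and 326 FPKM in controls 1 to 5 and at 230, 249, 240, 265 and 284 FPKM in mutants 1 to 5. No mutant lay above controls 1, 4 or 5, and the mutants overlapped controls 2 and 3, with a log2 difference of -0.22 (SE 0.12, limma, adjusted p = 0.62). Snrpb, which encodes SmB, had the next highest control mean at 198 ± 24.7 FPKM, with 181 ± 15.7 FPKM in mutants. Snrpd3 encodes SmD3, the partner of SmB in the ring. It stood at 20.6, 25.8, 21.1, 30.1 and 54.4 FPKM in controls 1 to 5 and at 37.1, 35.3, 44.1, 52.8 and 62.8 FPKM in mutants 1 to 5. All 5 mutants lay above controls 1 to 4, and control 5 lay above 4 of the 5 mutants. Its log2 difference of 0.66 (SE 0.25, adjusted p = 0.5) was the highest of the 36, and without control 5 it was 0.89 (adjusted p = 0.0588). Control 5 was the one control of the second set. With the library set as a term the difference of Snrpd3 was 0.50 (limma, adjusted p = 0.164). Snrpd3 overlaps Gucd1 on the opposite strand, as 9 other genes of the 36 overlap a gene there. Without a statement that counting used strand, reads of the 2 partners cannot be told apart.

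Snrpd2, which encodes SmD2, was the most uneven of the 36 genes among mutants. It ran from 23.0 to 71.0 FPKM in controls and from 23.1 to 76.5 FPKM in mutants, a coefficient of variation of 44.4% and 60.2%. Control 1 and mutant 2 were its highest libraries, and it overlapped between genotypes and between library sets. Snrpd1, which encodes the SmD1 partner of SmD2, split by set instead. Its second-set libraries held 51.3 to 57.9 FPKM and its first-set libraries 27.9 to 35.6 FPKM, with genotype means of 35.2 ± 12.7 and 41.5 ± 11.8 FPKM (SD, n = 5). Snrpf and Snrpg had log2 differences of 0.00 and 0.16, with adjusted p of 0.998 and 0.764 by limma.

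**Figure D3:**
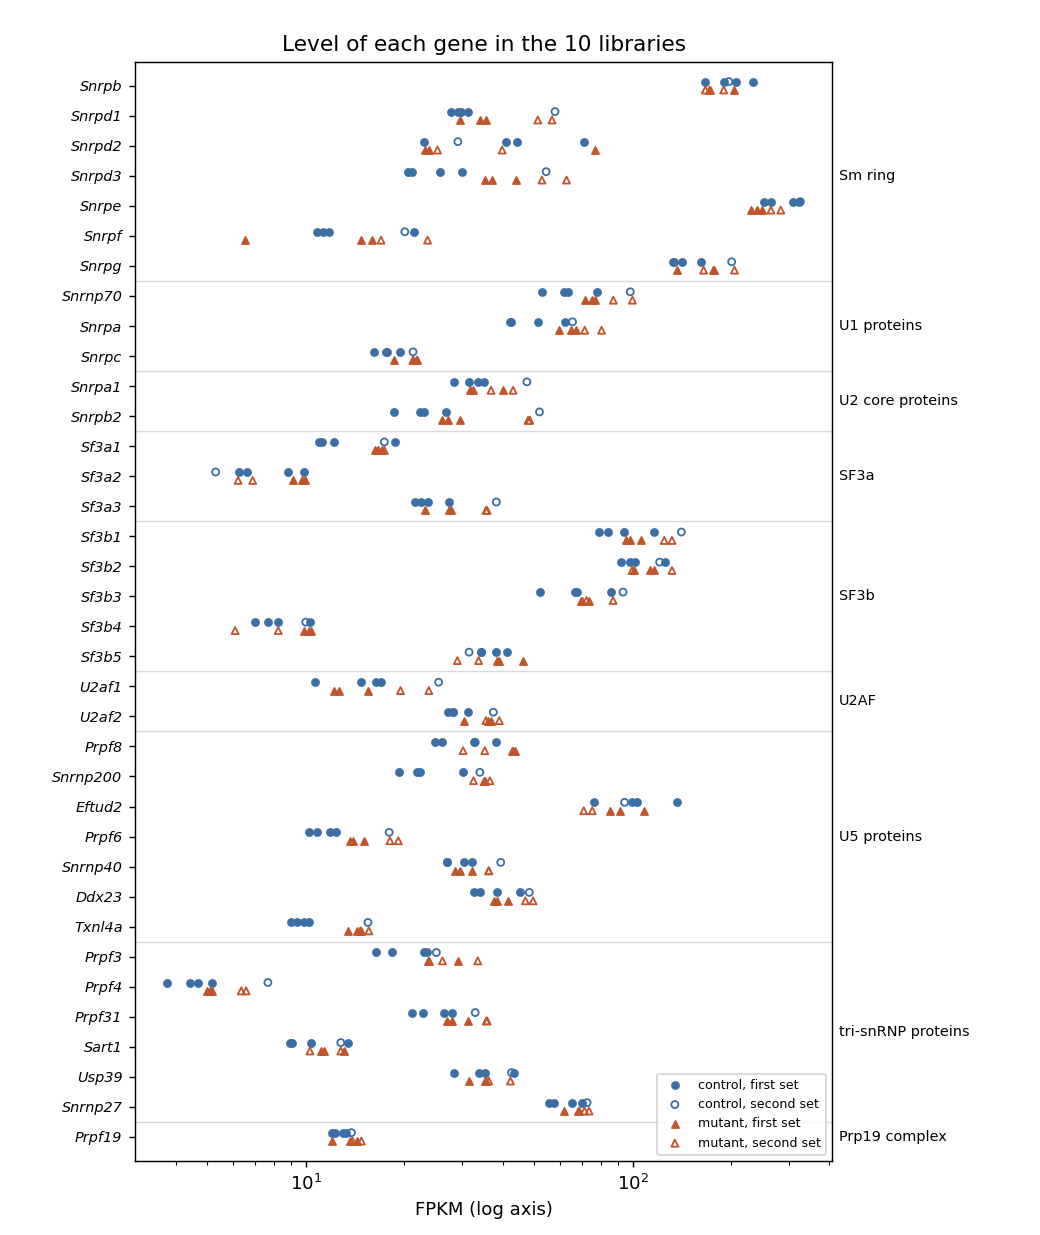
FPKM (horizontal log axis) of the 36 genes in 5 control (circles) and 5 mutant (triangles) libraries, in blocks by particle, with open symbols for the second library set. Control means run from 5.14 FPKM for Prpf4 to 295 FPKM for Snrpe, and the groups overlap for each gene.

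Of the 3 proteins found on the U1 particle and absent from the minor spliceosome, each gene had a higher mean in mutants and none passed the test. Over all 13522 tested genes, 10231 had a log2 difference above 0. Snrpa encodes the A protein of U1, which holds a stem loop of the U1 RNA. It stood at 42.1, 51.3, 42.6, 62.0 and 65.5 FPKM in controls 1 to 5 and at 64.7, 59.4, 67.3, 80.4 and 71.4 FPKM in mutants 1 to 5. Mutants 3, 4 and 5 lay above all controls, while control 4 lay between mutants 1 and 2 and control 5 above both (log2 difference 0.39, SE 0.14, limma, adjusted p = 0.463). Snrpa overlaps a gene on the opposite strand, BC024978. Snrpc encodes the C protein of U1, which steadies the pairing of U1 with the 5′ splice site. It stood at 19.4, 16.2, 17.6, 17.7 and 21.3 FPKM in controls and at 18.6, 21.3, 21.9, 21.9 and 21.3 FPKM in mutants. Mutants 2 to 5 lay above all controls, by less than 1 FPKM over control 5, and mutant 1 lay among the controls (log2 difference 0.18, SE 0.10, adjusted p = 0.62). Snrnp70, the gene of the U1-70K protein, averaged 70.9 ± 17.8 and 82.2 ± 11.5 FPKM in the 2 genotypes. Its level was higher in the second set (87.3 to 99.9 FPKM) than in the first (53.0 to 78.0 FPKM).

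The U2 particle recognises the branch point through 2 core proteins of its RNA, the SF3a and SF3b complexes, and the U2AF pair that loads it. None of these 12 genes passed the test. Snrpb2, whose protein binds a stem loop of the U2 RNA, stood at 26.8, 18.6, 23.0, 22.3 and 51.9 FPKM in controls 1 to 5 and at 27.2, 26.1, 29.7, 48.5 and 47.9 FPKM in mutants 1 to 5. The 3 libraries of the second set, of both genotypes, were the 3 highest. Its log2 difference was 0.36 (SE 0.27, limma, adjusted p = 0.712), and 0.18 once the library set was a term of the fit. Snrpa1, whose protein binds that loop together with the Snrpb2 protein, stood at 35.2, 33.7, 28.4, 31.6 and 47.5 FPKM in controls and at 31.8, 40.2, 32.5, 43.1 and 36.9 FPKM in mutants, intermixed (0.08, adjusted p = 0.889).

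SF3a is specific to the major spliceosome, since the U12 particle works without it. Sf3a1 stood at 11.2, 12.2, 11.0, 18.7 and 17.4 FPKM in controls 1 to 5 and at 16.3, 17.1, 16.6, 16.7 and 17.4 FPKM in mutants 1 to 5. Controls 1 to 3 lay below every mutant and control 4 above every mutant, and the mutants kept within a coefficient of variation of 2.66% against 26.1% in controls (log2 difference 0.27, SE 0.15, limma, adjusted p = 0.617). Sf3a3 stood at 23.6, 22.6, 21.6, 27.5 and 38.3 FPKM in controls and at 23.2, 27.9, 27.4, 35.6 and 35.9 FPKM in mutants, with the second set highest (0.17, adjusted p = 0.781). Sf3a2 averaged 7.35 ± 1.90 and 8.39 ± 1.72 FPKM.

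SF3b, which clamps the branch point helix, is shared by both spliceosomes, and its 5 genes lay closest together of the larger groups. Their log2 differences ran from 0.04 for Sf3b4 to 0.13 for Sf3b1, and 4 of the 5 were below the median of all tested genes. Sf3b1, the ring-shaped core of the complex, stood at 94.2, 84.2, 79.2, 116 and 141 FPKM in controls 1 to 5 and at 106, 98.3, 95.6, 132 and 125 FPKM in mutants 1 to 5 (log2 difference 0.13, SE 0.17, limma, adjusted p = 0.832). Sf3b2, which touches the intron beside the branch point, stood at 98.0, 102, 92.3, 126 and 121 FPKM in controls and at 101, 113, 116, 132 and 99.7 FPKM in mutants (0.06, SE 0.12, adjusted p = 0.892). In both genes the range of the mutants lay almost inside that of the controls. Sf3b3 averaged 73.1 ± 16.6 and 74.5 ± 7.28 FPKM, Sf3b4 8.65 ± 1.46 and 8.96 ± 1.82 FPKM, while Sf3b5 ran from 31.6 to 41.4 FPKM in controls and 29.1 to 46.2 in mutants.

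U2AF finds the end of a major intron before U2 arrives. U2af2, which binds the pyrimidine tract, stood at 28.2, 27.3, 28.2, 31.4 and 37.5 FPKM in controls 1 to 5 and at 30.4, 36.9, 36.2, 39.1 and 35.6 FPKM in mutants 1 to 5. Control 5 lay among the mutants, and mutant 1 among the controls (log2 difference 0.22, SE 0.11, limma, adjusted p = 0.594). U2af1, which reads the AG at the 3′ splice site, stood at 16.4, 14.8, 10.7, 17.0 and 25.5 FPKM in controls and at 12.2, 15.5, 12.6, 23.8 and 19.5 FPKM in mutants. Its means were 16.9 ± 5.39 and 16.7 ± 4.90 FPKM, and its second-set libraries were its 3 highest.

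The U5 proteins, shared by both spliceosomes, held 3 of the 6 genes with an unadjusted p under 0.05. Over all tested genes 8.76% reached that p, with 7.69% higher in mutants. A higher mean in mutants was found for 6 of the 7 U5 genes, and 10231 of all 13522 tested genes had a log2 difference above 0. The median log2 difference of the 7 was 0.33, against 0.11 over all tested genes. Differences between the particles were not tested. Snrnp200 encodes Brr2, the helicase that unwinds U4 from U6. It stood at 21.9, 22.4, 19.3, 30.2 and 34.1 FPKM in controls 1 to 5 and at 35.4, 35.0, 35.0, 36.6 and 32.6 FPKM in mutants 1 to 5. The mutants clustered tightly, 4 of the 5 above all controls, and control 5 lay above mutant 5 alone (log2 difference 0.46, SE 0.14, limma, adjusted p = 0.357). Txnl4a, a small thioredoxin-like protein of the particle, stood at 9.40, 9.86, 10.2, 8.99 and 15.5 FPKM in controls and at 13.5, 14.4, 14.8, 14.7 and 15.6 FPKM in mutants. Controls 1 to 4 lay below every mutant and control 5 above 4 of them (0.43, SE 0.14, adjusted p = 0.357). Without control 5 the log2 difference of Txnl4a was 0.56 and it passed (adjusted p = 0.026, with 0.026 to 0.746 over 20 alternatives), in a fit in which 0.584% of all tested genes did, 0.503% higher in mutants. In that fit 16 of the 36 had an unadjusted p under 0.05, all higher in mutants, against 20.5% of all tested genes and 19.2% in that direction. Control 5 was the one control of the second set. That fit therefore set first-set controls against mutants of both sets, which mixes genotype with library set. With the library set as a term Txnl4a did not pass (0.37, limma, adjusted p = 0.191). Nor did it in the first set alone (0.52, adjusted p = 0.0568). Txnl4a was the single gene of the 36 to pass in any of the 20 alternatives. It overlaps Gm16286 on the same strand, a gene listed at a mean of 23.5 FPKM, so strand could not separate their reads.

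Prpf8 forms the scaffold of the catalytic centre. It stood at 26.1, 32.8, 24.8, 38.3 and 33.0 FPKM in controls 1 to 5 and at 43.7, 42.9, 43.0, 35.3 and 30.3 FPKM in mutants 1 to 5. Mutants 1 to 3 lay above all controls, and mutants 4 and 5, of the second set, lay among them (log2 difference 0.33, SE 0.15, limma, adjusted p = 0.565). Prpf6, a bridge between U5 and U4/U6, averaged 12.7 ± 3.09 and 16.0 ± 2.47 FPKM (log2 difference 0.33, adjusted p = 0.569), and it overlaps Samd10 on the opposite strand. Eftud2, the GTPase of the particle, had the lowest difference of the 36. It averaged 102 ± 22.2 FPKM in controls and 86.2 ± 14.6 FPKM in mutants (log2 difference -0.23, adjusted p = 0.687), and control 4 was highest at 137 FPKM. Snrnp40 and Ddx23, the helicase that displaces U1, had log2 differences of 0.07 and 0.11.

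**Figure D4:**
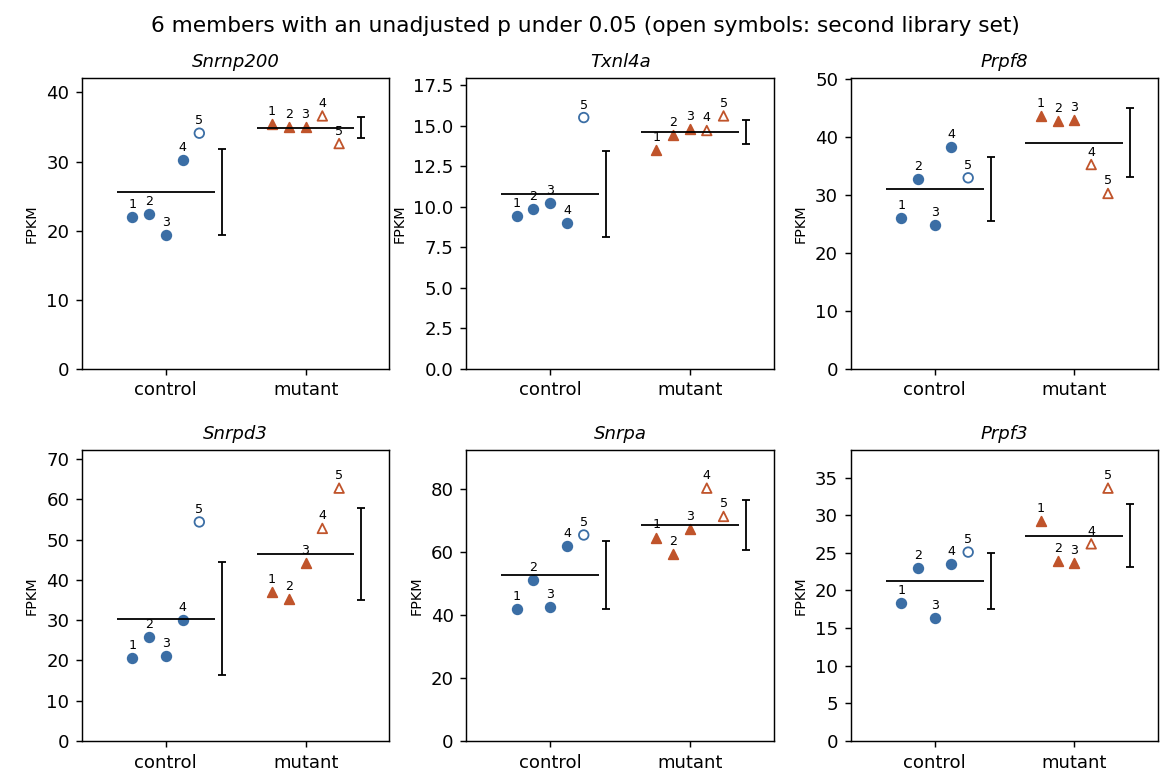
FPKM (vertical axes, linear from 0) of the 6 genes with an unadjusted p under 0.05, by group and numbered by library, with open symbols for the second library set; lines are means and bars are 1 SD (n = 5). Control 5 is the highest control for Snrnp200, Txnl4a, Snrpd3, Snrpa and Prpf3, and control 4 for Prpf8.

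Among the 6 genes of U4/U6 and tri-snRNP proteins none passed, and 5 of the 6 had a higher mean in mutants. A log2 difference above 0 was also found for 10231 of all 13522 tested genes. Prpf3, which holds the U4/U6 pair, stood at 18.4, 23.0, 16.4, 23.5 and 25.1 FPKM in controls 1 to 5 and at 29.2, 23.9, 23.6, 26.2 and 33.6 FPKM in mutants 1 to 5. Control 5 was the one control above any mutant, namely mutants 2 and 3 (log2 difference 0.35, SE 0.14, limma, adjusted p = 0.517). Prpf31, which binds the U4 RNA, stood at 26.4, 21.1, 22.9, 28.1 and 33.0 FPKM in controls and at 27.0, 31.4, 28.1, 35.7 and 35.9 FPKM in mutants (0.26, SE 0.14, adjusted p = 0.594). Controls 1 to 3 lay below every mutant and mutants 4 and 5 above every control. Prpf4, the partner of Prpf3, had the lowest control mean of the 36. It stood at 4.69, 4.44, 3.76, 5.17 and 7.66 FPKM in controls and at 4.99, 5.17, 5.10, 6.57 and 6.35 FPKM in mutants, with the second set highest (0.13, SE 0.16, adjusted p = 0.82). Sart1 and Usp39, which help the tri-snRNP to join, had log2 differences of 0.11 and -0.01, and Snrnp27 had 0.10.

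Prpf19, a ubiquitin ligase and the core of the Prp19 complex that activates the spliceosome, was the most even gene among controls. It stood at 13.3, 12.0, 12.3, 13.0 and 13.8 FPKM in controls 1 to 5 and at 12.0, 14.4, 13.7, 14.8 and 13.9 FPKM in mutants 1 to 5, with a coefficient of variation of 5.69% and 7.72%. Mutants 2, 4 and 5 lay above all controls, mutant 3 lay among the controls and mutant 1 was level with the lowest control (log2 difference 0.08, SE 0.09, limma, adjusted p = 0.809).

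The 36 genes were also divided by whether the minor spliceosome uses the protein. The 25 shared genes had a median log2 difference of 0.11, with 13 above the median of all tested genes. The 10 genes of proteins that the minor spliceosome lacks had a median of 0.20, with 8 above it. Both groups had 0 calls, and the difference between the groups was not tested. Prpf19 was put in neither group.

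Levels within a genotype were more even in mutants than in controls for 31 of the 36 genes, by the coefficient of variation, where 68.6% of all tested genes were. In some of the genes levels also differed between the library sets, and the share of the spread that went with the sets was not computed. Control 5 was the one control of the second set, so among controls the set cannot be told apart from that library. In 13 of 36 genes all second-set libraries lay above all first-set libraries, and in 1, Sf3b5, they lay below, against 15.5% and 6.28% of all tested genes. The sets were defined from these data, so these counts are descriptions. The sets differed by 0.91 on the log2 scale for Snrpd3 and by 0.98 for Snrpb2. With the library set as a term 0 of the 36 genes passed (limma), where 0.547% of all tested genes did, and 9 had an unadjusted p under 0.05, 8 of them higher in mutants, against 12.6% of all tested genes, 10.9% higher and 1.71% lower.

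The genotype difference of all tested genes also sets the scale for these genes. The 30 of 36 log2 differences above 0 stood beside 10231 of all 13522 tested genes above 0 and a median of all tested genes of 0.11. With libraries rescaled to a common median ratio, which brought that median to 0.00, 19 of 36 lay above 0 and 17 below. Of the 6 genes with an unadjusted p under 0.05, Snrnp200 was then at 0.35, Txnl4a at 0.32, Snrpd3 at 0.54, Snrpa at 0.27, Prpf3 at 0.23 and Prpf8 at 0.21, so each kept its sign. The direction was no longer the same throughout, however. After rescaling, 7 of the 36 had an unadjusted p under 0.05 (limma), 4 of them higher in mutants, against 1062 of all 13522 tested genes in either direction. After quantile normalization there were 6, with 5 higher in mutants, against 1046 of all tested genes. The 1062 and 1046 genes are not split by direction here. Over all tested genes, calls at an adjusted p under 0.05 (limma) were 12 higher and 9 lower in the main fit. They were 11 and 19 after rescaling, and 13 and 22 after quantile normalization.

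Further genes of the pathway, from lists written down by function, gave no call either. Among 81 genes of other spliceosome, U1-associated, exon junction and snRNP assembly proteins and the Sm paralog Snrpn, 0 passed in either direction (limma), and 5 were higher and 1 lower in mutants at an unadjusted p under 0.05. That was 7.41% of the list, near the 8.76% of all tested genes. The list's median log2 difference was 0.12. Ddx39b, a helicase that helps U2AF to recruit U2, averaged 79.1 ± 15.5 and 106 ± 10.9 FPKM (0.44, adjusted p = 0.357). Dhx8, which releases the spliced messenger RNA, averaged 6.97 ± 1.26 and 8.96 ± 0.636 FPKM (0.33, adjusted p = 0.457). Of the U1-associated genes, Prpf40b averaged 6.57 ± 0.717 and 9.46 ± 2.25 FPKM (0.45, limma, adjusted p = 0.396). Prpf39 averaged 7.53 ± 3.45 and 10.4 ± 1.84 FPKM (0.48, limma, adjusted p = 0.568). Ppih, a cyclophilin of the tri-snRNP that binds Prpf4, stood at 28.2, 23.6, 22.3, 22.5 and 22.7 FPKM in controls and at 19.2, 22.1, 19.5, 20.7 and 18.8 FPKM in mutants. Each mutant lay below each control, without passing the test (log2 difference -0.24, SE 0.10, adjusted p = 0.542). Gemin8, of the SMN complex that loads the Sm ring onto its RNA, stood at 3.47, 2.39, 3.59, 3.26 and 3.97 FPKM in controls and at 4.22, 4.33, 4.01, 4.47 and 3.97 FPKM in mutants. Its groups did not overlap, although mutant 5 and control 5 both round to 3.97 FPKM (0.27, adjusted p = 0.553). Groups without overlap were thus found for 1 of the 81 genes in each direction. Over all tested genes they were found for 1.52% with mutants higher and 0.377% with mutants lower.

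The 13 proteins particular to the minor spliceosome or its introns gave 1 call where the 36 gave 0, and 0.155% of all tested genes were called. Ccdc84 rose in mutants. It stood at 2.11, 2.96, 2.29, 4.55 and 2.71 FPKM in controls 1 to 5 and at 6.78, 7.37, 7.53, 6.94 and 7.98 FPKM in mutants 1 to 5 (log2 difference 1.11, SE 0.15, limma, adjusted p = 0.0155). Snrnp48, a U11/U12 protein, averaged 6.67 ± 2.56 and 13.1 ± 2.84 FPKM (0.91, adjusted p = 0.155). Its control 5, at 11.2 FPKM, lay above mutants 2 and 3, at 10.3 and 10.7 FPKM. It passed in the limma fit with a set term (0.78, adjusted p = 0.00815), which called 2 of the 13 and 0.547% of all tested genes. Differences between this list and the 36 genes were not tested. Among the RNA partners of the 36 proteins, chosen after their values were seen, Rnu1b1, a U1 gene, averaged 20465 ± 3530 and 23210 ± 5090 FPKM and Rnu5g, a U5 gene, 19041 ± 5640 and 19192 ± 7790 FPKM. Neither passed (limma, adjusted p = 0.836 and 0.986), and both belong to families of near-identical genes, so their values are uncertain.

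The dissected tissue expressed markers of the dorsal telencephalon, and markers of other cells were present too. Summed over 8 markers, dorsal genes reached 138 to 238 FPKM in controls and 227 to 287 FPKM in mutants. The 6 ventral markers summed to 37.2 FPKM in control 4 and to 1.13 to 12.6 FPKM elsewhere. The 5 microglia and macrophage markers summed to 14.0 to 35.3 FPKM in controls and 21.9 to 70.6 FPKM in mutants, and the 6 neuron markers to 210 to 395 and 278 to 391 FPKM. The 6 mitosis markers summed to 602 to 1036 and 670 to 963 FPKM, with the second set highest. The 6 erythroid markers, mostly globins, summed to 3292 to 7950 and 3950 to 8467 FPKM. Endothelial, mesenchymal and choroid plexus sums overlapped between the groups as well, and none of the markers was at 0 in all libraries. No marker that could be tested passed in the fit of genotype alone (limma). The filter on low values left 1 of the 6 ventral markers, Dlx1, and 5 of the 6 erythroid markers. With the library set as a term, 5 of the 5 microglia and macrophage markers had an unadjusted p under 0.05 (limma). So did 5 of the 6 neuron markers and 4 of the 8 dorsal markers, against 12.6% of all tested genes. None of the tested markers in the other marker lists did. C1qa, a microglial complement gene, then passed (log2 difference 1.25, adjusted p = 0.0089), as did Snap25, a synaptic gene of neurons (0.72, adjusted p = 0.0231). The part of these cells in the levels of the 36 genes was not tested, and in bulk tissue fewer cells of a type and less RNA per cell cannot be told apart.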

How the data were processed

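The authors deposited 1 list of gene symbols with FPKM values per library. Per the submitters' processing notes, reads were aligned with HISAT2 to mm10 (GRCm38). The sources used here name neither the program that computed FPKM nor its annotation or use of strand. Per the labels' protocols, RNA was extracted with Trizol and stranded total RNA libraries were made after Ribo-Zero removal of ribosomal RNA.

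Values were tested as log2(FPKM + 1), which understates changes of low genes, with limma 3.58.1 in R 4.3.3 (intensity trend, robust moderation, genotype as the single term) over the 13522 genes that reached 1 FPKM in 5 or more libraries. The fit was run on simulated data that held no library sets, so that run could not check how the sets affect the p-values. P-values were adjusted by Benjamini-Hochberg over all tested genes, threshold 0.05. Library sets were split at the widest gap in log2 Rnu12. Copies were found with blastn 2.17.0. Coordinates and transcripts are those of GENCODE M21, which may not be the authors' annotation. Of 182 list genes, 181 matched by symbol and 1, Sf3b6, by a RefSeq synonym (GRCm38.p6). Plots were made in Python 3.11.15 with matplotlib 3.10.9.

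Members and lists were chosen with earlier results of these data known. Values per library are given for the 2 genes per particle with the smallest p, for genes past the threshold or without overlap, and for the highest and lowest control mean. Up to 2 genes with the smallest p were named per further list. Other genes given with values, such as Prpf8, Eftud2, Snrpb, Snrpd1 and Snrpd2, and the pseudogenes, were added after their values were seen.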

Additional observations from a re-analysis of the deposited data

Results flagged for a closer look

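Single libraries stood far from the rest of their genotype in 7 of the 72 groups of 5 values (36 genes, 2 genotypes), or 9.72%. Chance gives about 1 group in 20 where values are independent, and the same rule picked out 8.59% of groups over all tested genes (12.9% in controls, 4.27% in mutants), so the share among the 36 was near that background. Genes of 1 library share its properties and are not independent. In 5 of these the library was control 5, the one control of the second library set. Snrpd1 stood at 57.9 FPKM in control 5 and at 27.9 to 31.3 in the other controls. Snrpd3 stood at 54.4 FPKM there against 20.6 to 30.1, and Snrpb2 at 51.9 FPKM against 18.6 to 26.8. Prpf6 stood at 18.0 FPKM in control 5 against 10.2 to 12.4, and Txnl4a at 15.5 FPKM against 8.99 to 10.2. Among mutants, Snrpc stood at 18.6 FPKM in mutant 1 against 21.3 to 21.9, and Sf3b3 at 87.2 FPKM in mutant 4 against 69.5 to 73.8. The cause of these values was not tested.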

How the results depend on the processing

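The count of 0 called genes among the 36 held under each alternative except without control 5, where it was 1 (Txnl4a). That fit held no control of the second set. Over the fits that left out 1 library the count among the 36 ran from 0 to 1. The count over all tested genes, 21, was 2 with no filter on low values, 35 after quantile normalization, 74 with the library set as a term, 101 in the first set alone, 11 without trend and robust moderation, and 2 to 79 when 1 library was left out (79 without control 5). The split of higher against lower calls over all tested genes was 12 to 9, and 11 to 19 after median ratio rescaling or 13 to 22 after quantile normalization; it was 82 to 19 in the first set alone, 68 to 11 without control 5 and 44 to 30 with the set term. Of 360 values (18 genes, 20 alternatives), 347 kept direction and side of the threshold, and Txnl4a passed once. The other 12 changed sign: median ratio rescaling gave Snrpa1 -0.045, Sf3b2 -0.059 and Prpf19 -0.031, quantile normalization gave Snrpa1 -0.014, Sf3b2 -0.018 and Prpf19 -0.018, and U2af1 was 0.18 with pseudogene copies summed and above 0 in 5 of the fits that left out 1 library, which ran from -0.143 to 0.15. The cause was not tested. With the replicate number as a block, 14 genes were called over all and 0 of the 36. Same-numbered libraries correlated at 0.077, 0.155, 0.236, -0.107 and 0.521 in their deviations from group means, so the numbers were not taken to pair the libraries; 2 of 5 controls correlated best with the mutant of their own number. The depth is known only roughly, which leaves the error of low genes unknown.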
